A study of Homo sapiens with 6 samples.

Results

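The miR-10, miR-99 and miR-125 precursors described here are the hairpins hsa-mir-10a, hsa-mir-99b, hsa-mir-125a and hsa-mir-125b-1 (written below without the species prefix), 4 of the 147 microRNA (miRNA) hairpins in the deposited table. They were taken by name from its hairpin column. The cells were HCT116 DICER-KO, a human colorectal carcinoma line whose DICER gene was knocked out, so all samples lack DICER of their own. The DICER-delHelicase rescue group (3 samples) was transfected with the plasmid pXG-DICER-delHelicase, which carries DICER without its helicase domain. The DICER-WT rescue group (3 samples) received pXG-DICER-WT, which carries full-length DICER. Cells were harvested 48 h after transfection and their small RNAs were sequenced. DICER in both groups was therefore plasmid-borne. The promoter of the plasmids, the amount of DICER protein and whether the line is a single clone were not stated.

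DICER is the RNase III enzyme that cuts the loop off a precursor miRNA and so decides where the miRNA of the 3′ arm (3p) begins, and its bases 2 to 8, the seed, choose its targets. The start of the 5′ arm miRNA (5p) is fixed earlier, by DROSHA. The helicase domain of DICER lies near the loop end of a bound precursor and is the site where the partner protein TRBP binds. The miR-10 and miR-99 families share an ancestor, and miR-10a is encoded among the HOXB genes. The miR-125 family is the vertebrate counterpart of lin-4 of Caenorhabditis elegans. In these precursors the 5p miRNA is the better known product, whereas the deposited table lists the 3p miRNA, the one whose start DICER sets.

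The mature sequences show the 3p seeds, which a shifted DICER cut would change, with the 5p seeds given beside them. They are from RefSeq (GRCh38.p14), 5′ to 3′, with the seed in capitals, first the 3p and then the 5p miRNA of each hairpin.
miR-10a-3p: cAAAUUCGuaucuaggggaaua
miR-10a-5p: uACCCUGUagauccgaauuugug
miR-99b-3p: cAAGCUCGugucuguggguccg
miR-99b-5p: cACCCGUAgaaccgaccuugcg
miR-125a-3p: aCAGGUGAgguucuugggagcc
miR-125a-5p: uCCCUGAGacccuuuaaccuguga
miR-125b-1-3p: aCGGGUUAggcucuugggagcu
miR-125b-5p: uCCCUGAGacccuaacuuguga
The 5p miRNAs of mir-125a and mir-125b-1 have the same seed, CCCUGAG, and those of mir-10a and mir-99b both open their seed with ACCC. The 3p miRNAs have 4 different seeds. All 4 are 22 nt long, as is the listed miRNA in 75 of the 136 hairpins whose miRNA was found in RefSeq. miR-125a-3p and miR-125b-1-3p are identical at 18 of 22 positions, and miR-10a-3p and miR-99b-3p at 13 of 22.

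The hairpins lie at 3 loci (GRCh38, GENCODE release 29). The mir-10a hairpin is at chr17:48579838-48579947 on the minus strand, in an untranslated exon of a HOXB4 transcript, in an exon of the non-coding transcript AC103702.1 and in introns of HOXB3 transcripts. The mir-99b hairpin, chr19:51692612-51692681, and the mir-125a hairpin, chr19:51693254-51693339, are both on the plus strand in an intron of SPACA6, within 728 nt of each other from end to end, and an exon of SPACA6P-AS, a long non-coding RNA, runs opposite them. The let-7e hairpin lies between them. The mir-125b-1 hairpin, chr11:122099757-122099844 on the minus strand, is in an intron of MIR100HG, the long non-coding RNA that hosts it. The table was searched by name for 7 relatives and companions of these hairpins (mir-10b, mir-99a, mir-100, mir-125b-2, let-7e, let-7a-2 and let-7c). Of these, let-7e has a line in the table and the others have none.

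Each hairpin has a single variation score per construct, headed by the authors as its global variation. Neither its formula nor the way 3 samples became 1 value is stated in the labels or the header. Scores in the table ran between 0 and 1.09. By its heading a higher score stands for more variable products. With 1 value per group there was no spread between replicates, no test was run, and a difference below is the DICER-delHelicase score minus the DICER-WT score. The read depth behind a score is unknown, so no difference given here could be set against an error.

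The miR-125 precursors had lower scores with DICER-delHelicase. The hsa-mir-125a hairpin scored 0.0760 with DICER-delHelicase, against 0.178 with DICER-WT, a difference of -0.102. That was the 11th lowest of the 147 differences, in a table where most hairpins went the other way. The hsa-mir-125b-1 hairpin, whose 5p miRNA has the same seed, scored 0.0407 with DICER-delHelicase and 0.0590 with DICER-WT, a difference of -0.0183 (26th lowest). Both miR-125 hairpins of the table were thus on the lower side, as were 25.9% of all 147 hairpins. The mir-125a hairpin was apart from its own DICER-WT score by much more than mir-125b-1.

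The hsa-mir-10a hairpin, which gives the HOXB-encoded miR-10a, had the highest scores of the 4 under both constructs and hardly differed between them. It scored 0.316 with DICER-delHelicase and 0.321 with DICER-WT, a difference of -0.00460. Its place from the highest score downward was 47th of 147 with DICER-delHelicase and 25th with DICER-WT, so more hairpins scored above it with DICER-delHelicase.

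The hsa-mir-99b hairpin, of the miR-99 family that is related to miR-10, was the only one of the 4 with a higher score under DICER-delHelicase. It scored 0.0351 with DICER-delHelicase, against 0.00900 with DICER-WT, a difference of 0.0261. Its difference was 74th of 147 in order and so was itself the median of the table. Both of its scores were low, at place 107 from the top with DICER-delHelicase and 118 with DICER-WT. Its ratio of DICER-delHelicase to DICER-WT score was 3.90, against 0.986 for mir-10a, 0.690 for mir-125b-1 and 0.428 for mir-125a. That ratio rests on scores near 0 and was not set against the table.

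**Figure D1:**
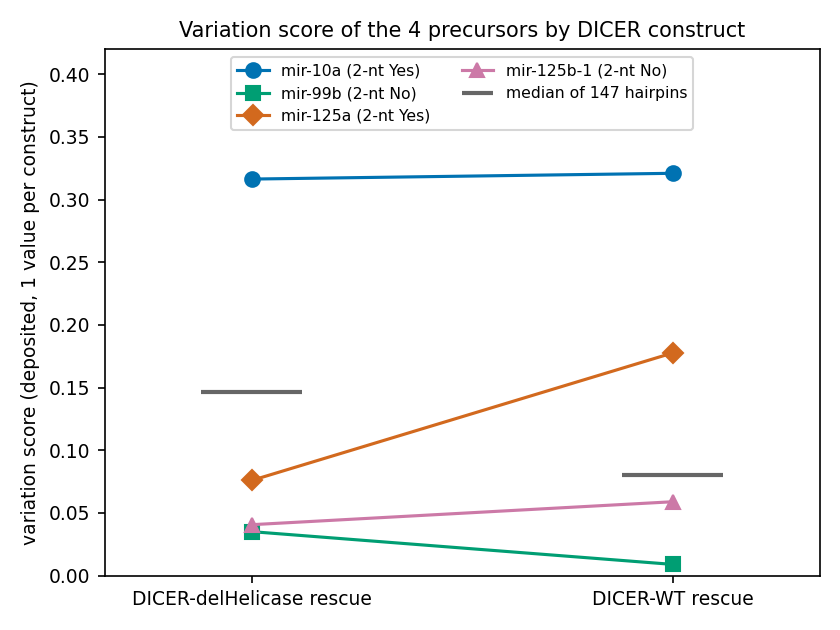
Deposited variation score (y axis, no unit) of mir-10a, mir-99b, mir-125a and mir-125b-1 with DICER-delHelicase (left) and DICER-WT (right), 1 value per construct and no error bars. Grey bars are the medians of all 147 hairpins, 0.146 with DICER-delHelicase and 0.0804 with DICER-WT; the mir-10a line is almost level, and mir-125a is at 0.0760 with DICER-delHelicase against 0.178 with DICER-WT.

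Set against the whole table, 3 of the 4 precursors had a lower score with DICER-delHelicase, whereas 25.9% of all 147 hairpins did (38). The higher side held 1 of the 4, and 72.1% of all hairpins (106). A decrease of at least 0.05 was found in mir-125a alone of the 4 and in 11.6% of all hairpins, and an increase of that size in none of the 4 and in 46.3% of all hairpins. The median difference was -0.0114 over the 4 precursors and 0.0261 over all hairpins. Median scores were 0.0584 with DICER-delHelicase and 0.118 with DICER-WT for the 4, and 0.146 with DICER-delHelicase and 0.0804 with DICER-WT for the table. With 4 members and no replicates these counts describe the deposited values only.

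**Figure D2:**
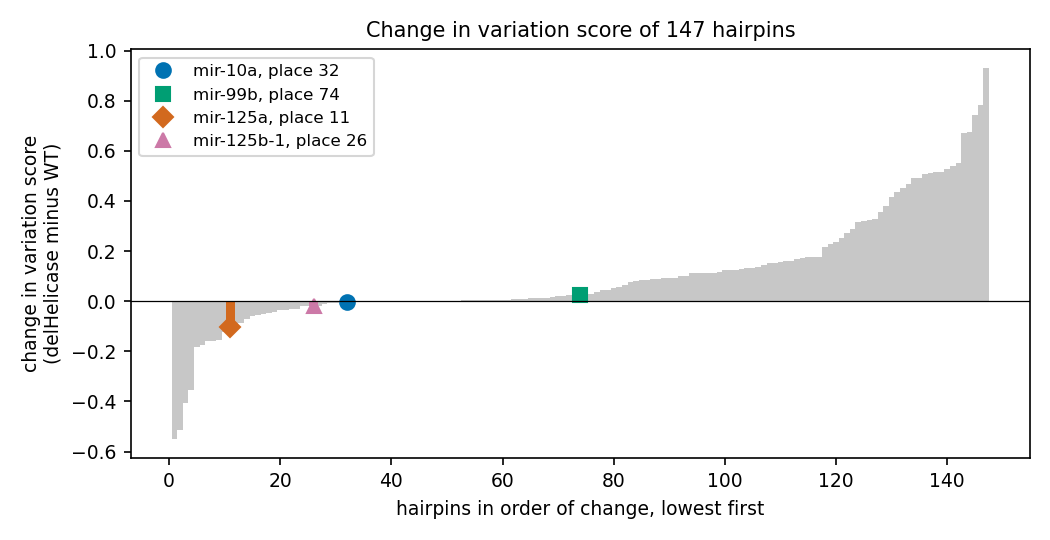
Difference in variation score (y axis, DICER-delHelicase minus DICER-WT, no unit) of the 147 hairpins in rising order (x axis), 1 bar each, with the 4 precursors coloured. Places 11 (mir-125a), 26 (mir-125b-1) and 32 (mir-10a) are below 0 and mir-99b, at place 74, is the middle of the table.

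If scores have a floor at 0, a low DICER-WT score leaves little room for a decrease, so each precursor was also set beside the 20 hairpins nearest to it in DICER-WT score. The 20 hairpins around mir-10a (DICER-WT scores 0.224 to 0.412) had a median difference of 0.250, and 6 of them had a lower score with DICER-delHelicase. The near absence of a difference at mir-10a thus stood among hairpins that mostly scored higher. Around mir-125a (0.139 to 0.199) the median difference was 0.140 and 7 of 20 were lower, 2 of them by more than mir-125a. Around mir-125b-1 (0.0409 to 0.0755) it was 0.0850 with 5 of 20 lower, all 5 by more than mir-125b-1. Around mir-99b (0.00228 to 0.0155) it was 0.00524 with 4 of 20 lower, and 18 of 20 had a difference below that of mir-99b. Copies that give the same miRNA count separately in these sets of 20. Around mir-99b they include copies of mir-941 with identical scores, whose difference of 0.00524 is itself the median there.

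**Figure D3:**
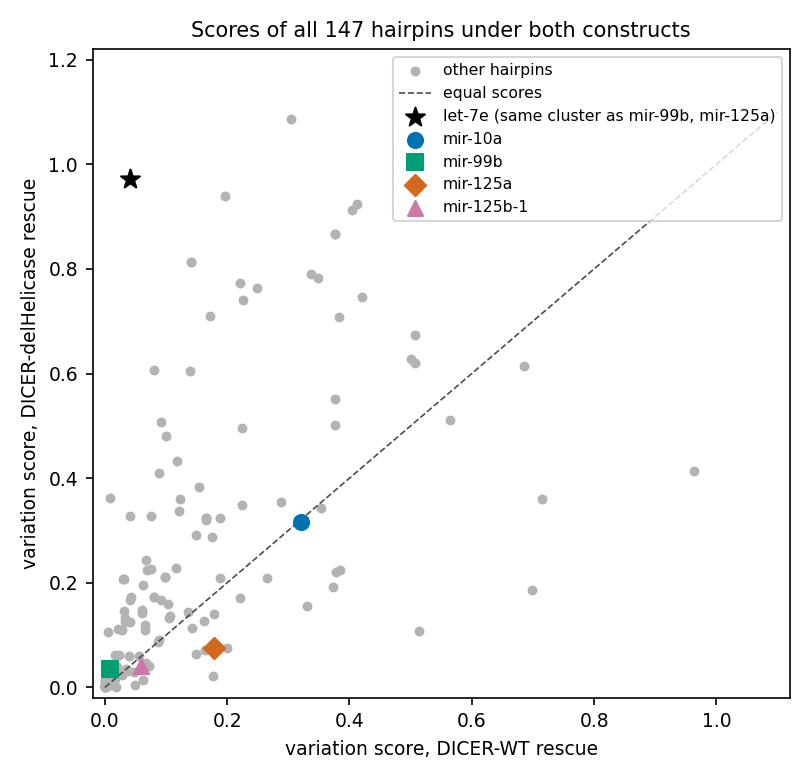
Variation score with DICER-delHelicase (y axis) against that with DICER-WT (x axis), no unit, for 147 hairpins, 1 point each; the dashed line marks equal scores. Points for mir-10a, mir-125a and mir-125b-1 lie on or below the line, mir-99b lies just above it near the origin, and let-7e (star) is at 0.972 against 0.0409.

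The polycistron on chromosome 19 held hairpins that differed in opposite directions. From 5′ to 3′ it carries mir-99b, then let-7e after a gap of 104 nt, then mir-125a after 389 nt more. Their differences were 0.0261 for mir-99b, 0.931 for let-7e, of the let-7 family of developmental timing miRNAs, and -0.102 for mir-125a. For let-7e, the largest increase in the table, the scores were 0.972 with DICER-delHelicase and 0.0409 with DICER-WT. Hairpins 104 and 389 nt apart in 1 host intron thus gave the highest of the 147 differences, the median and the 11th lowest.

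The precursors also differed in where the 3p miRNA starts relative to unpaired bases. The precursors are shown from 5p start to 3p end with the 3p miRNA in capitals, from the deposited hairpin sequences. For mir-10a, which overlaps an untranslated exon, the 12 bases on either side of the 3p start are given.
mir-125a: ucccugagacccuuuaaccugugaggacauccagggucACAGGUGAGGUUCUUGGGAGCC
mir-125b-1: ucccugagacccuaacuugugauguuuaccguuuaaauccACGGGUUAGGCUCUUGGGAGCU
mir-99b: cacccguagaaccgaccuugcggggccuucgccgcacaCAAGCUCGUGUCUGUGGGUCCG
mir-10a: auuuuguggucaCAAAUUCGUAUC

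Folding of the deposited hairpins with RNAfold left the first base of the 3p miRNA paired in all 4. It was also paired in 117 of the 136 hairpins whose miRNA was found in RefSeq. In the folds below, from 5p start to 3p end, a parenthesis is a paired and a dot an unpaired base, and a parenthesis at either end can pair outside the stretch shown.
mir-125a fold: (.(((((((.((((..((((((((((....))....)))))))))))).))))))).)))
mir-125b-1 fold: (.(((((((.(((((((((((..(((((.....))))).))))))))))).))))))).)))
mir-99b fold: .(((((((((..(((.((((.(.(((....))).)...)))).)))..)))))))))..)
mir-10a fold: (.((((.(((((.((((((((((................)))))))))).))))))))).)))

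In mir-125a, 2 paired bases separate the 3p start from a bulge of 4 unpaired bases on the 3′ side. In mir-10a, 2 paired bases separate it from the terminal loop, which is 16 nt long. In mir-125b-1 a single paired base lies between the 3p start and a small internal loop, with 1 unpaired base on the 3′ side and 2 on the 5′ side. In mir-99b there is none, and the 3p start directly adjoins an internal loop with 3 unpaired bases on the 3′ side and 1 on the 5′ side. The terminal loops of the miR-125 and miR-99b precursors are short, with 4 nt in mir-125a, 5 nt in mir-125b-1 and 4 nt in mir-99b. In all 4 folds the annotated 5p miRNA runs 2 nt past the base that pairs with the 3p start, the overhang typical of RNase III products. The let-7e fold has it too, and it was not computed over the table.

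**Figure D4:**
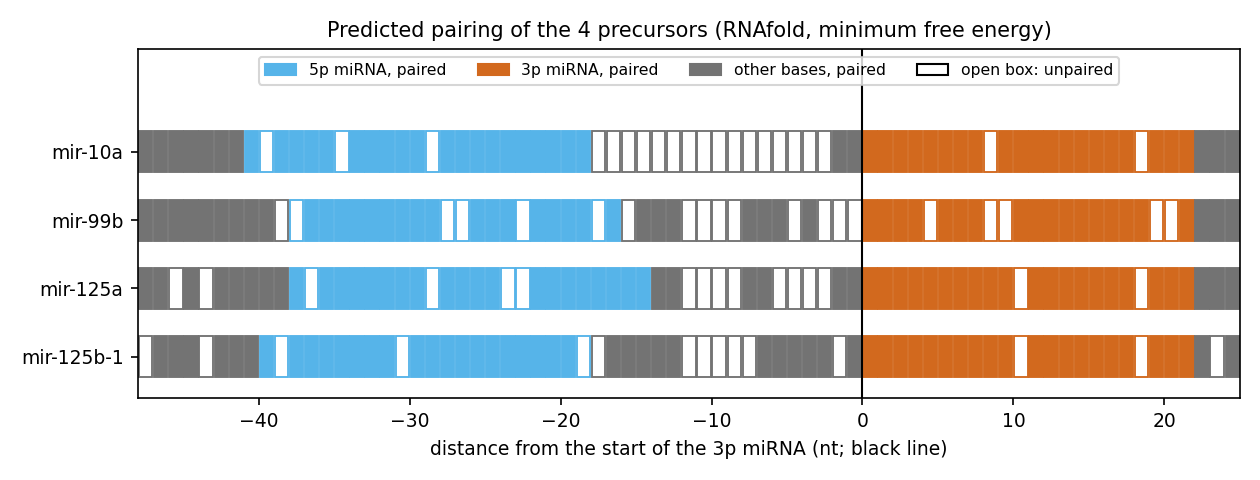
Predicted pairing along the 4 precursors, aligned at the start of the 3p miRNA (black line; x axis, distance in nt), 1 box per base, filled where paired and open where unpaired, coloured by arm. The 3p start sits 2 paired bases from the terminal loop in mir-10a and from a bulge in mir-125a, 1 from an internal loop in mir-125b-1 and next to one in mir-99b.

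The table also gives each hairpin a Yes or No entry headed 2-nt, which its heading ties to DICER-WT isomirs without defining it. It is Yes for mir-10a and mir-125a, whose predicted distance is 2, and No for mir-125b-1 (1) and mir-99b (0). DICER is known to cut accurately 2 nt from a loop or bulge, the loop-counting rule, and whether the class stands for that is not stated. Across the 136 hairpins whose miRNA was found in RefSeq, the predicted distance was 2 in 57 of 70 hairpins of class Yes (81.4%) and in 3 of 66 of class No (4.55%). With centroid folds class No held 7 of 66 (10.6%) and with maximum expected accuracy folds 6 of 66 (9.09%). Copies that give the same miRNA can differ in class, and mir-103a-1 and mir-3158-1 (both Yes, distance 2) differ so from mir-103a-2 (No, distance 3) and mir-3158-2 (No, distance 1). Class and distance did not always go together among copies. Both mir-101-1 (Yes) and mir-101-2 (No) have distance 2, and mir-24-1 (distance 2) and mir-24-2 (distance 3) are both Yes. Class did not part the 4 precursors by direction. The DICER-delHelicase score was lower in 26.0% of the class Yes hairpins and in 25.7% of class No, with a median difference of 0.0115 in class Yes and 0.0549 in class No, and the 3 precursors with lower scores come from both classes. The column for the main DICER-WT 5′ end holds 0 for all 4, as for 140 of the 147 hairpins.

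**Figure D5:**
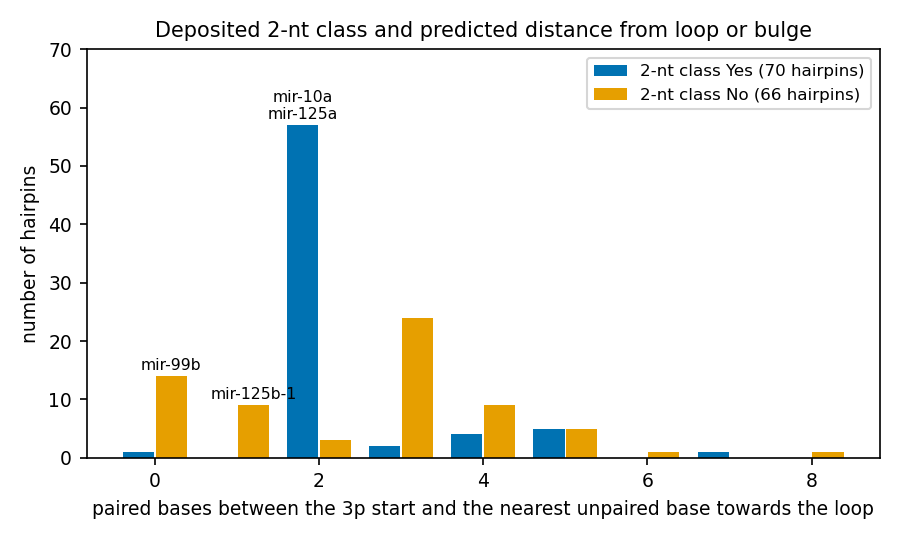
Number of hairpins (y axis) by the number of paired bases between the 3p start and the nearest unpaired base towards the loop (x axis), for the deposited 2-nt classes Yes (70 hairpins) and No (66). The class Yes hairpins gather at 2, where mir-10a and mir-125a are, while mir-99b is at 0 and mir-125b-1 at 1.

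The precursors spanned a wide range in base composition and predicted stability. G and C made up 39.2% of the deposited mir-10a hairpin, 49.1% of mir-125b-1, 57.5% of mir-125a and 68.9% of mir-99b, against a median of 51.8% over the 136 hairpins. Predicted free energy per base of the deposited hairpins, flanks included, followed the same order. It went from -0.288 kcal/mol in mir-10a through -0.381 in mir-125b-1 and -0.436 in mir-125a to -0.470 in mir-99b, with a median of -0.431. The scores did not follow that order throughout. By that energy, mir-10a was the least stable of the 4, with their highest scores, and mir-99b the most stable, with their lowest. The mir-125b-1 hairpin, however, scored below the more stable mir-125a under both constructs. Folded from 5p start to 3p end only, the precursors had another order. Total energies were then -22.9 kcal/mol in mir-10a (63 nt), -23.4 in mir-99b (60 nt), -25.6 in mir-125b-1 (62 nt) and -25.9 in mir-125a (60 nt).

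The 3p miRNAs have only short stretches in common with other hairpins of the table. The longest run that a 3p miRNA shares with any other hairpin of the table is 8 nt for mir-10a, 9 nt for mir-99b and 10 nt for both miR-125 hairpins, which share it with each other. Against the other mature miRNAs of RefSeq, it was 11 nt for miR-10a-3p (with miR-10b-3p) and 12 nt for miR-125b-1-3p (with miR-125b-2-3p). It was 10 nt for miR-99b-3p and miR-125a-3p. The handling of reads that fit several hairpins was not stated.

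By straight-line distance over the 2 scores, the hairpins most like mir-125a were mir-421 (0.0706 with DICER-delHelicase and 0.164 with DICER-WT), mir-16-2 and mir-361. Those most like mir-125b-1 were mir-671 (0.0458 and 0.0664, in the same order), mir-1278 and mir-501. For mir-10a they were mir-625 (0.342 and 0.354), mir-135b and mir-4664, and for mir-99b mir-200a (0.0351 and 0.00966), mir-200c and mir-23a. The likeness rests on 2 values per hairpin.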

How the data were processed

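Per the labels' protocols, the small RNA fraction of 10 µg of total RNA was purified on a 12% urea gel and sequenced on an Illumina instrument. The submitters' processing notes name Cutadapt, Bowtie2, bedtools and GRCh38. The authors deposited 1 variation score per hairpin and construct (294 lines, 147 hairpins, 127 miRNAs), not values per sample. Depth is unknown.

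Scores were subtracted (DICER-delHelicase minus DICER-WT) without rescaling. Mature miRNAs came from RefSeq, found for 136 hairpins; 11 were not matched. Hairpin sequences as deposited hold 10 flanking bases on either side of the RefSeq hairpins of the 4 precursors. They were folded with RNAfold 2.7.2 (37 °C, minimum free energy). The 3p start was the annotated one, moved by the deposited offset, read as nucleotides towards the 3′ end. Paired bases before it were counted along the 3′ side only, so a bulge confined to the 5′ side did not end the count. The fold measure was tested on simulated hairpins with a perfect stem and a terminal loop, but not on bulges or internal loops.

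Members, lists and settings were chosen with earlier results of these data known. Text names the 4 members, hairpins within 10 kb on the same strand, the 7 listed relatives and the 3 most alike hairpins per member. Copies of mir-24, mir-101, mir-103a, mir-199a, mir-941 and mir-3158 are named as examples outside these lists. Alternatives were centred differences, other thresholds, the mean, each precursor left out, and other folds.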

Additional observations from a re-analysis of the deposited data

How the results depend on the processing

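The direction of every difference was kept under the alternatives run, except that mir-99b, being the median, became 0 when the median difference of all hairpins was subtracted. That centring gave -0.0307 for mir-10a and -0.0444 for mir-125b-1. Subtracting the median difference of the 20 hairpins nearest in DICER-WT score gave -0.254 for mir-10a, -0.242 for mir-125a and -0.103 for mir-125b-1. The count of 3 lower precursors became 1 (mir-125a) when a decrease of at least 0.02, a decrease of at least 0.05 or a ratio of at most 1/1.5 (0.01 added to both scores) was asked for. The median difference of -0.0114 became -0.0246 as a mean, -0.0183 without mir-10a or without mir-99b, and -0.00460 without mir-125a or without mir-125b-1. The background share of 25.9% became 11.6% for decreases of at least 0.05. A decrease of at least 0.02 was found in 24 hairpins of the whole table. The 24th lowest difference was -0.0206 (mir-671) and the 25th lowest was -0.0195 (mir-501). No background share was computed for the ratio, so the count of 1 precursor at that setting cannot be set against the table. The paired-base distances of the 4 precursors were identical in centroid and maximum expected accuracy folds and in folds of the precursor alone. No paired analysis was possible because the scores are not split by sample, and for that reason leaving out replicates was not run. The unknown depth limits what can be read from scores near 0, such as those of mir-99b, and from small differences.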

Other observations

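The kind of unpaired element that lies 2 paired bases from the 3p start, compared here after the values were seen, went with different shares of lower scores. Where it was the terminal loop, as in mir-10a, 11 of 20 hairpins scored lower with DICER-delHelicase (55.0%), with a median difference of -0.000724. Where it was a bulge or internal loop, as in mir-125a, 5 of 40 scored lower (12.5%), with a median difference of 0.0709, so mir-125a was among the few of its kind on the lower side. With 1 value per miRNA the shares were 52.6% and 13.9%, with centroid folds 44.8% and 12.1%, and with maximum expected accuracy folds 50.0% and 13.2%. Over all distances they lay closer together, with 22 of 57 hairpins lower (38.6%) for the terminal loop and 13 of 79 (16.5%) for a bulge or internal loop. The medians depended more on the fold. For the terminal loop the median was 0 with centroid folds, 0.00183 with centroid folds and 1 value per miRNA, and -0.000117 with maximum expected accuracy folds. For the bulge or internal loop it was 0.0288 with centroid folds, 0.0470 with maximum expected accuracy folds and 0.112 with 1 value per miRNA. These are counts over hairpins of 1 table with no replicates, they include mir-10a and mir-125a themselves, and no test was run.

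Hairpins with a paired 3p start that adjoins an unpaired base, as in mir-99b, scored lower with DICER-delHelicase in 0 of 8 cases, with a median difference of 0.0492, and those with an unpaired start and an unpaired base before it in 1 of 7. At a distance of 1 paired base, as in mir-125b-1, 3 of 9 did, mir-125b-1 itself among the 3, with a median difference of 0.0209. The set of 8 includes mir-99b itself, and the copies mir-199a-1 and mir-199a-2, which have identical scores, both count in it. The share over all hairpins was 25.9%, and these sets, compared after the values were seen, are small.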
